A study of Mus musculus with 12 samples.

Results

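The growth of the wild-type mouse heart over 1 day of mid-gestation, from E13.5 to E14.5 (E stands for embryonic day), was read from bulk RNA of whole hearts. The comparison takes 6 of the 12 libraries of the series, the 3 labelled wild type (WT) at E14.5 against the 3 labelled WT at E13.5, and covers all 20691 genes that had enough counts to be tested. The other 6 libraries are hearts with Tie2 Ino80 disruption (KO), 3 at each stage, and are used here for a shared estimate of the spread and for a second reading of the same stages. Tie2 drives expression in the endothelial lineage, which includes the endocardium, so most heart cells lie outside it, and Ino80 encodes the ATPase of a chromatin remodeller. The labels give every library the Tie2 Ino80 treatment text and set WT apart by genotype only. No source used here states the strain, which part of Ino80 was deleted, whether WT hearts carried Tie2-Cre or a floxed allele, or whether hearts were pooled. The E13.5 hearts, replicates 1, 4 and 2, are all of litter 1, while E14.5 replicates 8 and 7 are of litter 2 and replicate 7.2 is of litter 3. Stage and litter therefore cannot be told apart, in WT or in KO, since the KO hearts came from the same litters.

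Around mid-gestation the mouse ventricle changes from a thin, trabeculated wall into a compact one, the coronary vessels spread through it, and the valve cushions are remodelled. Cardiomyocytes build up mitochondria, fatty acid oxidation and calcium stores while they go on dividing. In the blood, primitive red cells from the yolk sac, which carry embryonic globins, are joined and then outnumbered by definitive red cells from the fetal liver, which carry adult-type globins.

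WT libraries held 46556032 to 182545647 counts, so counting error was small for most genes and the spread between hearts set the precision. Defining markers of the labelled tissue were high in all 6 hearts: the summed level of 6 cardiomyocyte genes was 19051 to 19791 CPM (counts scaled to the library's TMM-adjusted total) at E13.5 and 20652 to 23576 CPM at E14.5. On the first principal component of the 6 hearts (41.2% of the variance), the E13.5 hearts lay at -60.7, -30.3 and -4.95 and the E14.5 hearts at 23.6, 20.6 and 51.7, with the litter 3 heart farthest out. Y-linked counts put 1 male and 2 females in each stage, the males being E13.5 replicate 2 and E14.5 replicate 7.2, so sex was balanced between stages but the litter 3 heart was also the male one. Levels below are listed in the order replicates 1, 4, 2 at E13.5 and 8, 7, 7.2 at E14.5. Errors of log2 fold changes are standard errors from the fit of all 12 libraries, 3 hearts a group, with the spread shared between WT and KO.

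At a Benjamini-Hochberg adjusted p under 0.05 (edgeR quasi-likelihood test, two-sided), 766 of 20691 genes (3.70%) differed between the stages, with 386 higher at E14.5 (1.87% of all genes) and 380 lower (1.84%). Changes were mostly modest: the median log2 fold change was 0.55 among the called genes that rose and -0.51 among those that fell, against 0.00 over all genes, and 96 rose and 69 fell more than 2-fold. In all 766 called genes the 3 E14.5 hearts lay on one side of the 3 E13.5 hearts, a pattern also seen upward in 14.0% and downward in 15.5% of all tested genes. In 610 of the 766, the litter 3 heart was the E14.5 heart farthest from the E13.5 mean, and in 31 it was the nearest. By direction, it was farthest in 341 of the 386 that rose and 269 of the 380 that fell. At an unadjusted p under 0.05 there were 4740 genes. The number of calls depended on single hearts: 10, 27 and 8 genes were called without E13.5 replicates 1, 4 and 2 in turn, and 15 without E14.5 replicate 7.2, against 767 and 578 without E14.5 replicates 8 and 7. Every called gene named below, other than the 5 that follow, lost its call without at least 1 of the 6 WT libraries.

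**Figure D1:**
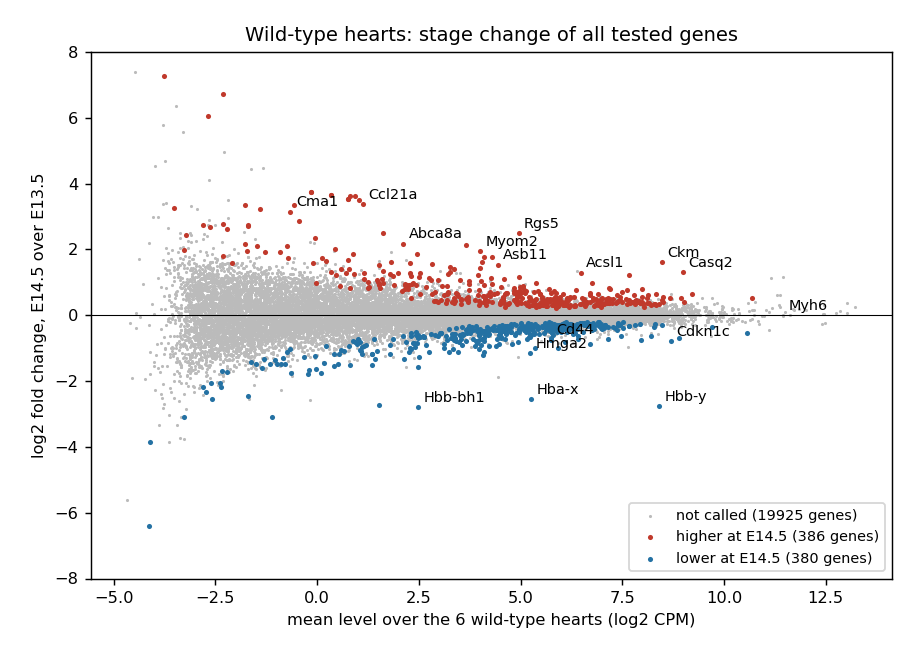
Each point is 1 of the 20691 tested genes, with the mean level over the 6 WT hearts on the x axis (log2 CPM) and the log2 fold change of E14.5 over E13.5 on the y axis. The 386 genes called higher and 380 called lower are coloured, and most lie within 1 log2 unit of 0, while the primitive globins Hbb-y, Hbb-bh1 and Hba-x lie below -2 and Rgs5 and Ccl21a above 2.

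The calls that stood up best were few. Only 5 genes were called without each of the 6 WT libraries in turn and under all 21 alternative settings: Rgs5, Abca8a, Ppp1r3c, Fam101b and Cd44, the last 3 of which were singled out after their values were seen. Rgs5, a regulator of G protein signalling and a marker of pericytes (chromosome 1, 169655501 to 169695813), was read at 12.9, 11.1 and 15.8 CPM at E13.5 and 60.00, 64.1 and 101 CPM at E14.5. The lowest E14.5 heart was more than 3 times the highest E13.5 heart, and the log2 fold change was 2.50 ± 0.28 (adjusted p = 0.00493). Abca8a, a lipid transporter of the ABC family (chromosome 11, 110025634 to 110095978), rose from 1.96, 2.27 and 1.94 CPM to 8.52, 7.45 and 11.8 CPM, by 2.17 ± 0.24 on the log2 scale (adjusted p = 0.00493). Ppp1r3c, which targets protein phosphatase to glycogen and favours glycogen synthesis (chromosome 19, 36731731 to 36736653), rose from 147, 138 and 137 CPM to 211, 233 and 243 CPM (0.70 ± 0.07, adjusted p = 0.00493), and its hearts varied little within a stage. Fam101b, which encodes a filamin-binding protein of the actin cytoskeleton, rose from 19.3, 20.1 and 19.8 CPM to 28.9, 33.6 and 32.1 CPM (0.68 ± 0.08, adjusted p = 0.00493). Cd44, the hyaluronan receptor (chromosome 2, 102811141 to 102901665), was the member of the 5 that fell, from 72.2, 70.8 and 64.5 CPM to 45.4, 39.97 and 39.04 CPM (-0.74 ± 0.09, adjusted p = 0.00757).

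Genes of energy metabolism made up the broadest rise. Of the 93 genes on lists for fatty acid use, the citric acid cycle with phosphocreatine, and the nuclear-encoded respiratory chain, 29 rose (31.2%, against 1.87% of all genes), 0 fell, and 90 had a log2 fold change above 0. By list, 13 of 29 fatty acid genes, 8 of 24 citric acid cycle and phosphocreatine genes and 8 of 40 respiratory chain genes rose, with medians of 0.38, 0.31 and 0.31 over all members of each. In each of the 29 the litter 3 heart was the highest of all, as it was in 341 of all 386 genes that rose. Without that heart (E14.5 replicate 7.2) 1 of the 93 passed and the median over the 93 was 0.24, against 0.33 with it, and across all alternatives 0 to 59 passed. The cardiomyocyte marker sum was also higher in all E14.5 hearts, and among these it was lowest in the litter 3 heart, at 20652 CPM. Its members were split: of the E14.5 hearts, the litter 3 heart was lowest for Myh6, Myh7 and Ttn and highest for Tnnt2, Actc1 and Nkx2-5. The part of cardiomyocyte content in the energy gene changes was not tested. In bulk RNA, more cells of a type and more RNA per cell cannot be told apart.

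Along the route of a fatty acid, uptake came first. Gpihbp1, which holds lipoprotein lipase on capillary walls (chromosome 15, 75596628 to 75599481), rose from 3.55, 4.80 and 4.10 CPM to 10.4, 10.6 and 15.8 CPM (1.56 ± 0.25, adjusted p = 0.0205), so that every E14.5 heart had more than 2 times the level of every E13.5 heart. Cd36, a fatty acid translocase of endothelium and muscle, rose from 181, 136 and 142 CPM to 259, 199 and 329 CPM (0.78 ± 0.17, adjusted p = 0.0347). Of the cytosolic carriers, the muscle form Fabp3 rose by 0.61 ± 0.14 and the endothelial form Fabp4 by 0.98 ± 0.21 (adjusted p = 0.0357 and 0.0334). Acsl1, which charges fatty acids with coenzyme A (chromosome 8, 46471037 to 46536051), rose from 63.6, 55.2 and 54.8 CPM to 129, 106 and 192 CPM, by 1.30 ± 0.19 (adjusted p = 0.0168). Cpt1b, the muscle gate for entry into mitochondria, did not pass the test (0.27 ± 0.14, adjusted p = 0.285), and its stages overlapped.

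Inside the mitochondrion, enzymes of beta-oxidation rose by smaller amounts with tight replicates. Acadl, the long-chain acyl-CoA dehydrogenase, was read at 412, 404 and 417 CPM and then 584, 534 and 649 CPM (0.52 ± 0.09, adjusted p = 0.0208). Eci2, an isomerase for unsaturated chains, showed the smallest change among the called fatty acid genes, 0.30 ± 0.05, from 67.1, 67.8 and 67.9 CPM to 82.7, 81.2 and 85.6 CPM (adjusted p = 0.0168). Acadm, Acadvl, Hadh, Hadhb, Acaa2 and Etfdh rose by 0.39 to 0.54 on the log2 scale. Pdk4, the kinase that shuts pyruvate out of the citric acid cycle, rose by 0.42 ± 0.10 (adjusted p = 0.0398). The pyruvate dehydrogenase subunit genes Pdha1 and Pdhb rose as well, by 0.32 ± 0.08 and 0.39 ± 0.09 (adjusted p = 0.0497 and 0.0440).

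**Figure D2:**
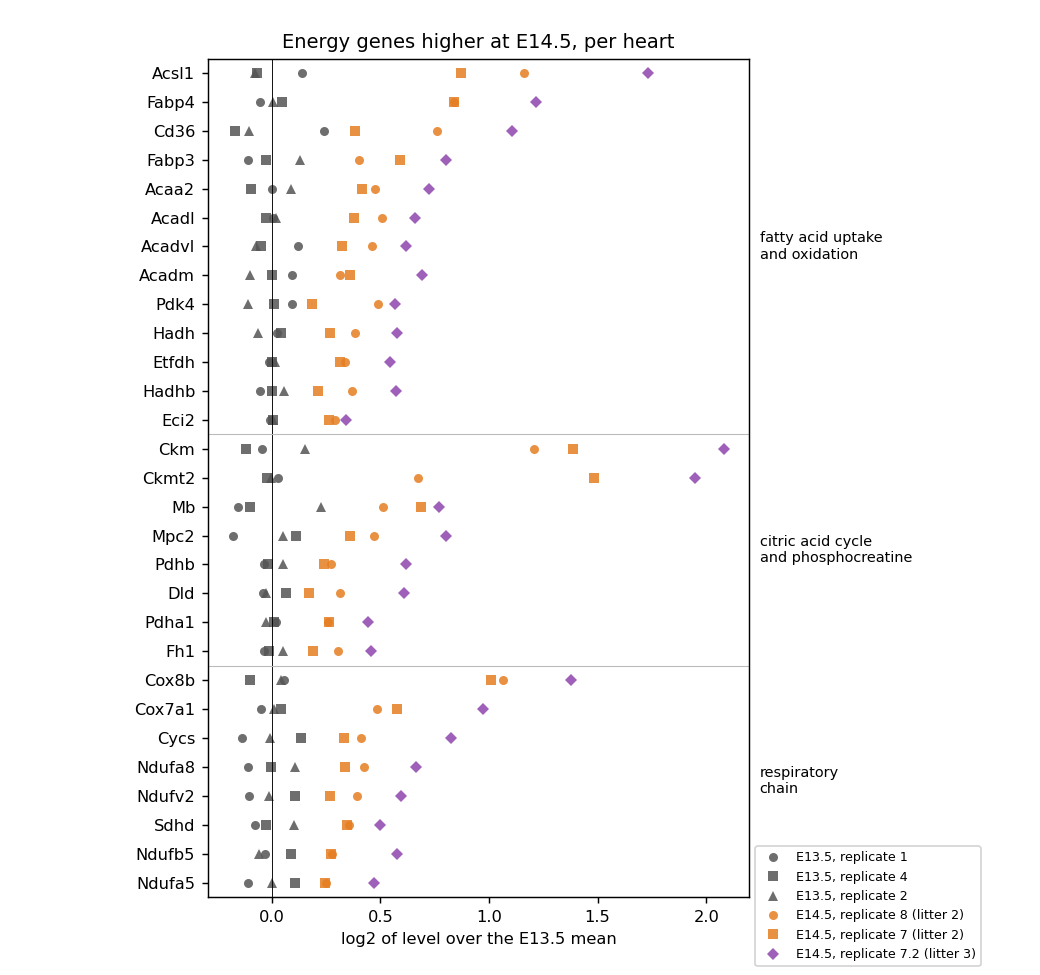
Rows are the 29 energy genes that rose, and the x axis is the log2 of the level in each WT heart over the E13.5 mean. The 3 grey symbols per row are E13.5 hearts and the orange and purple symbols are E14.5 hearts. No E14.5 heart overlaps an E13.5 heart in any row, as in all 766 called genes. The litter 3 heart (purple diamond) is the highest in each of the 29, as in 341 of all 386 genes that rose.

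The phosphocreatine shuttle genes Ckm and Ckmt2 and the muscle oxygen store gene Mb rose as well. Ckm, the cytosolic muscle creatine kinase (chromosome 7, 19404776 to 19422841), was read at 201, 191 and 231 CPM at E13.5 and 480.3, 543 and 880.2 CPM at E14.5, a 3.05-fold rise (1.61 ± 0.26, adjusted p = 0.0205). Ckmt2, its partner inside mitochondria, rose from 6.12, 5.90 and 5.98 CPM to 9.55, 16.8 and 23.1 CPM, and here the E14.5 hearts themselves differed by more than 2-fold (1.46 ± 0.30, adjusted p = 0.0297). Mb, myoglobin, rose by 0.66 ± 0.14 (adjusted p = 0.0326). In the respiratory chain, all 40 members lay above 0 and 35 had the E14.5 hearts above all E13.5 hearts, as did 14.0% of all tested genes, and 8 passed. The largest changes were those of Cox8b and Cox7a1, muscle forms of cytochrome oxidase subunits, at 1.16 ± 0.17 and 0.70 ± 0.17 (adjusted p = 0.0163 and 0.0449). The rows of mitochondrially encoded genes held no counts in these libraries, so the subunits encoded there were not measured.

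Of 17 regulators of metabolism, 3 rose (17.6%, against 1.87% of all genes) and 0 fell (median 0.20, and 0.31 without E14.5 replicate 8). Ppara, the nuclear receptor for fatty acids (chromosome 15, 85734983 to 85802819), rose from 6.68, 5.69 and 6.42 CPM to 11.4, 13.9 and 21.3 CPM (1.31 ± 0.25, adjusted p = 0.0247). Perm1, a muscle factor that acts with PGC-1 and the estrogen-related receptors, rose from 13.1, 14.1 and 12.6 CPM to 22.6, 27.8 and 35.7 CPM (1.12 ± 0.19, adjusted p = 0.0208). Klf15, a glucocorticoid-responsive regulator of lipid use, rose from 8.16, 7.15 and 8.64 CPM to 13.6, 15.3 and 21.1 CPM (1.07 ± 0.16, adjusted p = 0.0168). All 3 had no overlap, as in all 766 called genes, and were highest in the litter 3 heart, as were 341 of all 386 genes that rose. Ppargc1a, which encodes PGC-1 alpha itself, lay above 0 without passing (0.36 ± 0.10, adjusted p = 0.0641). Glycolysis and hypoxia genes had a median of -0.06 (14 of 35 above 0) that moved by over 1.5 times without any 1 of the WT libraries other than E14.5 replicate 7.2, between -0.11 and -0.0032. Of the 35, 2 rose (5.71%): Eno3, the muscle enolase (0.47 ± 0.11), and Ndrg1, a hypoxia-induced gene (1.09 ± 0.24).

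Of 25 calcium handling genes, 5 rose (20%, against 1.87% of all genes) and 0 fell. Their median was 0.13, and 0.084 without E13.5 replicate 2. The litter 3 heart was the highest in all 5, as in 341 of all 386 genes that rose. Casq2, the cardiac calsequestrin that binds calcium in the sarcoplasmic reticulum (chromosome 3, 102086415 to 102146514), rose from 299, 368 and 311 CPM to 621, 779 and 1034 CPM (1.32 ± 0.23, adjusted p = 0.0208). Pln, phospholamban, the brake on the calcium pump, rose from 1374, 1328 and 1448 CPM to 1724, 1872 and 2385 CPM (0.53 ± 0.11, adjusted p = 0.0278). Trdn, triadin, which anchors calsequestrin to the release channel, rose by 0.38 ± 0.07, S100a1, a calcium sensor of the reticulum, by 0.67 ± 0.14, and Cacna1g, a T-type calcium channel, by 0.83 ± 0.14 (adjusted p = 0.0225, 0.0311 and 0.0208). The pump Atp2a2 (0.40 ± 0.13, adjusted p = 0.0955) and the release channel Ryr2 (0.46 ± 0.24, adjusted p = 0.275) did not pass.

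In the sarcomere, 1 gene passed, a share of 2.94%, near the 1.87% of all genes that rose. Of 34 genes, Myom2, an M-band protein of mature muscle, rose (median 0.17, 26 above 0), from 9.84, 7.61 and 7.37 CPM to 28.5, 27.1 and 40.6 CPM (1.95 ± 0.42, adjusted p = 0.0319). Tnni3, the adult-type cardiac troponin I, was read at 540.1, 587 and 653 CPM and then 730.3, 860.1 and 975 CPM; its stages did not overlap but the change missed the threshold (0.53 ± 0.14, adjusted p = 0.0561), while the fetal form Tnni1 was at 0.15 ± 0.10 (adjusted p = 0.356). The myosin heavy chains Myh6 (-0.01 ± 0.23) and Myh7 (0.31 ± 0.17) did not pass, and Myh6 was lowest in the litter 3 heart at 1847 CPM, against 2700.4 to 3443 CPM in the other 5. Among 28 ion channel and gap junction genes, 2 rose and 1 fell (7.14% and 3.57%, against 1.87% and 1.84% of all genes). Kcnq1, the slow delayed rectifier, rose by 0.70 ± 0.13 (adjusted p = 0.0225). Kcnip2, the subunit of the transient outward current, rose from 1.87, 1.34 and 0.993 CPM to 4.29, 5.04 and 14.6 CPM, most of all in the litter 3 heart (2.49 ± 0.53, adjusted p = 0.0311).

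Among transcription factors of heart patterning, more fell than rose. Of 33, 7 fell and 1 rose (21.2% and 3.03%, against 1.84% and 1.87% of all genes). Their median was -0.06, and -0.034 without E13.5 replicate 2. Gata5, of the endocardium and epicardium, fell from 13.52, 16.9 and 12.2 CPM to 7.48, 7.73 and 4.61 CPM (-1.11 ± 0.21, adjusted p = 0.0242). Hand1 (-0.77 ± 0.18), Irx5 (-0.61 ± 0.10), Tbx5 (-0.46 ± 0.09), the atrial and venous factor Nr2f2 (-0.39 ± 0.07) and the MYC-family factor Mycn (-0.32 ± 0.07) also fell. Mef2a, an activator of muscle genes, was the gene that rose (0.35 ± 0.08, adjusted p = 0.0358), and Nkx2-5 did not pass (-0.08 ± 0.12, adjusted p = 0.705). Of 20 trabecular and atrial genes, 4 fell and 0 rose (20% lower, median -0.49, 16 below 0). Bmp10, a growth factor of trabeculae and atria, fell from 53.4, 46.6 and 40.6 CPM to 31.7, 33.1 and 28.6 CPM (-0.59 ± 0.15, adjusted p = 0.0449), and Sema3a, an axon guidance factor, and Clu, clusterin, fell by 0.67 ± 0.17 and 0.86 ± 0.16. The litter 3 heart was the lowest for all 4, as in 269 of all 380 genes that fell. Nppa, the natriuretic peptide of atria and trabeculae, was at -0.60 ± 0.23 and did not pass (adjusted p = 0.147).

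**Figure D3:**
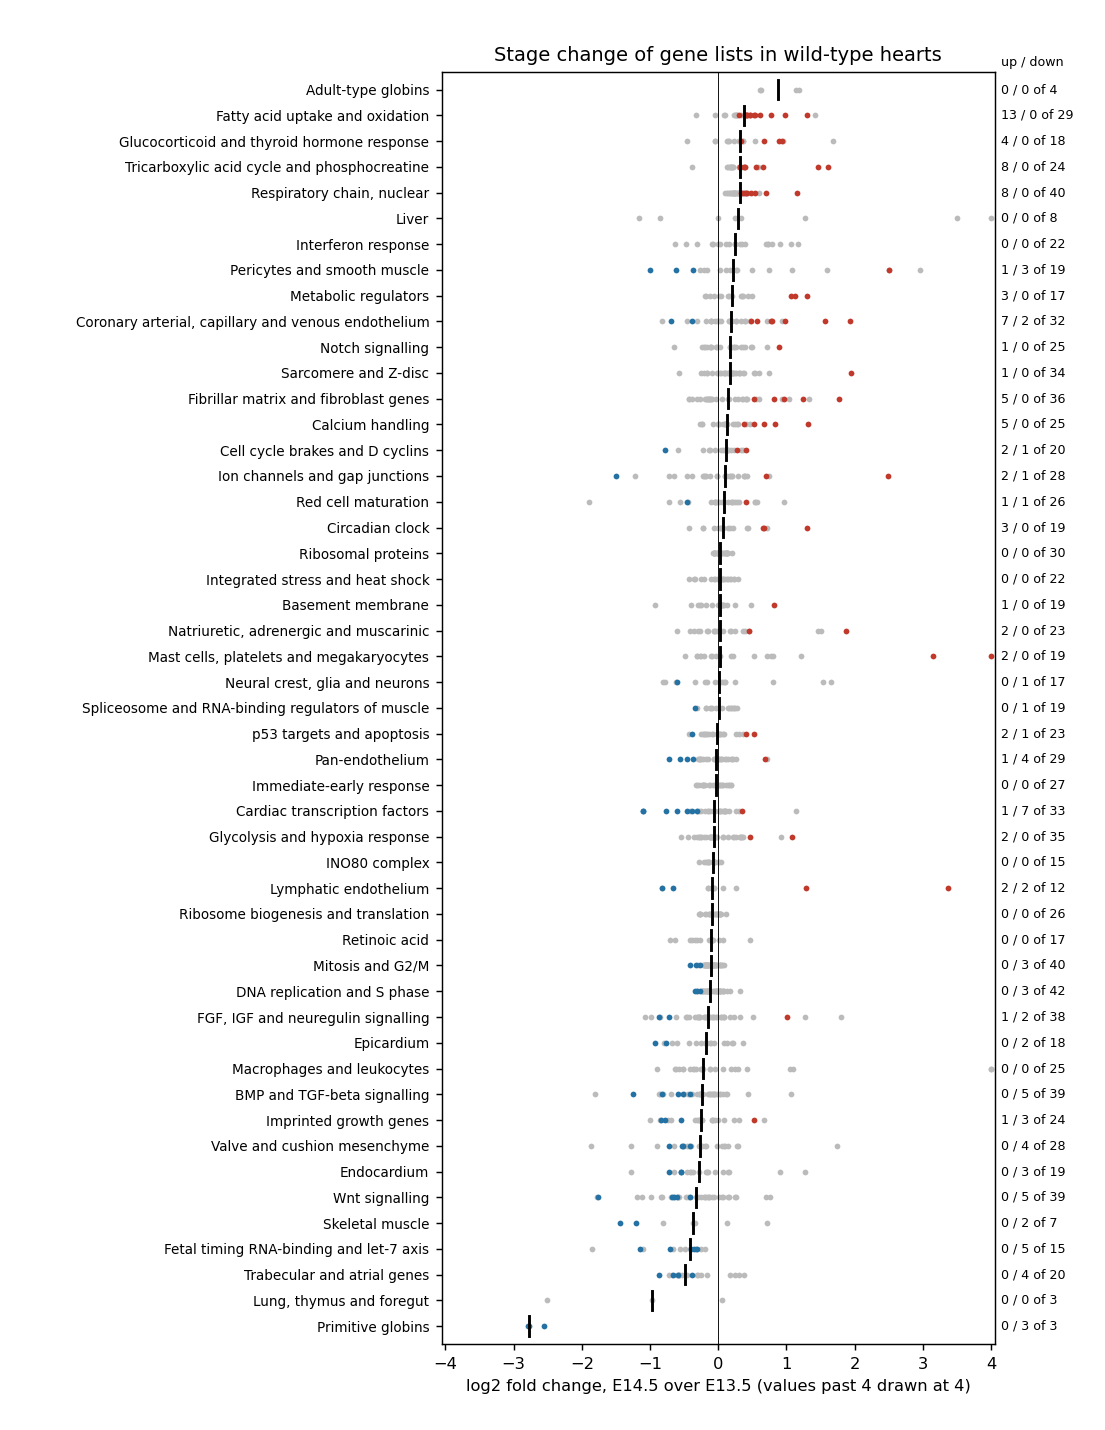
Each row is 1 of 49 gene lists, ordered by median, with the log2 fold change of each tested member on the x axis. Red and blue points passed the test, grey points did not, the black bar is the median, and the numbers at the right are members up and down of those tested. Adult-type globins and fatty acid genes stand at the top and primitive globins at the bottom, and most lists centre within 0.5 of 0.

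The members that passed in a list of fetal timing genes around the let-7 microRNAs all fell. Let-7 microRNAs accumulate as tissues mature and repress mRNAs that hold a match to their seed in the 3' UTR, among them genes for growth and RNA-binding proteins of the early embryo. Small RNA was not measured, so the let-7 level is not known here. The mature sequences, from RefSeq on GRCm38.p6, are shown with the seed (bases 2 to 8) in capitals because all members of the family share it:
let-7a-5p: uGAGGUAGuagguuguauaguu
let-7g-5p: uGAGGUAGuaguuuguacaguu
let-7d-5p: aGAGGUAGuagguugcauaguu
miR-98-5p: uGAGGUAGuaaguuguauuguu

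Of the 15 tested genes on the list, 5 fell (33.3%, against 1.84% of all genes), 0 rose and all 15 lay below 0 (median -0.41). In 11 the E14.5 hearts lay below all E13.5 hearts, as they did in 15.5% of all tested genes. Of these 15, 13 hold the DNA match CTACCTC in their longest annotated 3' UTR (86.7%), as do 10.5% of all tested genes with a 3' UTR. The list was drawn up from let-7 targets and their partners, so its share with a match is no finding. Among called genes the match was present in 13.2% of those that fell and 8.01% of those that rose. The first match in each of the fallen genes that hold one, with the match in capitals and GENCODE M21 coordinates on GRCm38, reads as follows:
Hmga2, minus strand, chr10:120364224-120364245: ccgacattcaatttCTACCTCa
Igf2bp2, minus strand, chr16:22059473-22059494: cacacaaataaaagCTACCTCa
Igf2bp3, minus strand, chr6:49086787-49086808: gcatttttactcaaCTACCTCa
Arid3a, plus strand, chr10:79953896-79953917: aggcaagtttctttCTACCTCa

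Hmga2, a chromatin protein of proliferating embryonic cells with 4 such matches (chromosome 10, 120361275 to 120476469), fell from 62.5, 62.4 and 46.2 CPM to 31.7, 25.9 and 19.99 CPM (-1.15 ± 0.19, adjusted p = 0.0208). Each E14.5 heart lay below each E13.5 heart, as in all called genes that fell, and the litter 3 heart was the lowest. Arid3a, a DNA-binding protein with 2 matches, fell by 0.71 ± 0.14 (adjusted p = 0.0253). The RNA-binding proteins Igf2bp2 and Igf2bp3, with 1 match each, fell from 97.9, 90.5 and 80.2 to 70.2, 66.2 and 68.2 CPM (-0.39 ± 0.07, adjusted p = 0.0208) and from 55.95, 53.4 and 49.2 to 44.8, 41.4 and 37.3 CPM (-0.36 ± 0.09, adjusted p = 0.0399). Lin28b, the let-7 processing inhibitor with 4 matches, was low and did not pass (-0.57 ± 0.19, adjusted p = 0.106). Over all tested genes the median log2 fold change was -0.06 with a match and -0.02 without.

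Among imprinted growth genes, 3 of 24 fell and 1 rose (12.5% and 4.17%, against 1.84% and 1.87% of all genes). Their median was -0.26, and -0.17 without E14.5 replicate 7.2. Cdkn1c, the inhibitor of cyclin-dependent kinases known as p57 (chromosome 7, 143458339 to 143461050), fell from 523, 535 and 587 CPM to 362, 328 and 266 CPM (-0.78 ± 0.15, adjusted p = 0.0225). Mest fell by 0.55 ± 0.12 from a high level (1974, 1835 and 1742 CPM to 1322, 1436 and 1026 CPM), and Nnat, a membrane protein of the reticulum, fell by 0.85 ± 0.21. The gene that rose was Dcn, described below with the matrix genes. Igf2 (-0.28 ± 0.13, adjusted p = 0.211) and H19 (-0.24 ± 0.09, adjusted p = 0.153) did not pass, although both were among the most abundant transcripts, Igf2 at 6881, 5863 and 5345 CPM and then 5549, 4857 and 4522 CPM.

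Mitosis and replication genes that passed the test all fell. Of 40 mitosis genes, 34 lay below 0 and 3 fell (7.5%, median -0.11). Of 42 replication genes, 30 lay below 0 and 3 fell (7.14%, median -0.13). In either list 0 rose, and over all tested genes 1.84% fell. Plk1, the mitotic kinase, fell from 64.9, 69.5 and 71.4 CPM to 53.5, 50.3 and 50.6 CPM (-0.41 ± 0.07, adjusted p = 0.0208), with Incenp (-0.32 ± 0.07) and Kif20a (-0.27 ± 0.06). Lig1, which joins Okazaki fragments, fell from 85.9, 85.7 and 85.1 CPM to 74.3, 65.7 and 63.4 CPM (-0.34 ± 0.08, adjusted p = 0.0357), with the polymerase gene Pole (-0.32 ± 0.08) and the helicase subunit Mcm3 (-0.27 ± 0.07). Mki67, present throughout the cycle, did not pass (-0.07 ± 0.07, adjusted p = 0.620). Without E14.5 replicate 7.2, 0 of these 6 passed, and the replication median was -0.055.

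Primitive globins showed the largest fall of any list. All 3 fell (median -2.77). Hbb-y, embryonic epsilon globin (chromosome 7, 103851749 to 103853216), was read at 809.9, 1205 and 1115 CPM at E13.5 and 314, 102 and 43.1 CPM at E14.5, so the E14.5 hearts differed among themselves by more than 7-fold (-2.77 ± 0.65, adjusted p = 0.0399). Hba-x, embryonic zeta globin (chromosome 11, 32276400 to 32278116), fell from 77.4, 107 and 118 CPM to 29.6, 15.1 and 6.999 CPM (-2.56 ± 0.55, adjusted p = 0.0319). Hbb-bh1, the third of them (chromosome 7, 103841637 to 103843164), fell from 14.6, 16.3 and 16.4 CPM to 4.19, 1.64 and 1.12 CPM (-2.79 ± 0.50, adjusted p = 0.0225). The E14.5 hearts kept the order 8, 7 and 7.2 from highest to lowest in all 3 genes.

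Adult-type globins lay above 0 without passing. Hbb-bs was read at 1517, 1606 and 2659 CPM and then 3279.5, 4094 and 5697 CPM, with no overlap, but the change did not pass beside the spread of the hearts in the fit (1.18 ± 0.71, adjusted p = 0.342). Hba-a1 and Hba-a2 overlapped between stages (0.62 ± 0.57 and 0.63 ± 0.57). The paired copies Hbb-bs and Hbb-bt, and Hba-a1 and Hba-a2, are near identical, and how their reads were split is not known. As a share of all globin counts, primitive globins made up 13.1%, 16.6% and 10.4% in the E13.5 hearts and 2.96%, 0.864% and 0.279% in the E14.5 hearts. All globins together made up 0.688% to 1.20% of counts at E13.5 and 1.17% to 1.83% at E14.5, with the highest share in the litter 3 heart. The summed level of 4 red cell markers was 37.8 to 56.8 CPM at E13.5 and 53.7 to 91.0 CPM at E14.5, overlapping ranges.

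**Figure D4:**
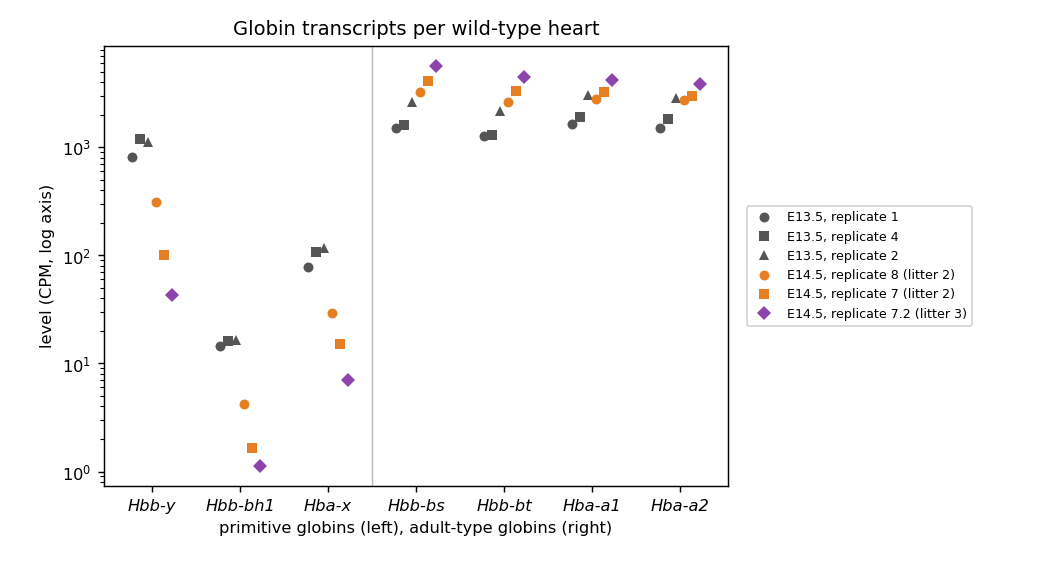
Level of each globin in each WT heart (CPM, log axis), with E13.5 hearts in grey, E14.5 litter 2 hearts in orange and the litter 3 heart in purple. The 3 primitive globins are lower in every E14.5 heart than in every E13.5 heart, and Hbb-y runs from 1205 CPM in E13.5 replicate 4 to 43.1 CPM in the litter 3 heart.

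Of the coronary vessel genes that passed, more rose than fell, and of the general endothelial and endocardial genes that passed, more fell. Of 32 genes of coronary arterial, capillary and venous endothelium, 7 rose and 2 fell (21.9% and 6.25%, median 0.19). Over all tested genes, 1.87% rose and 1.84% fell. Of 29 pan-endothelial genes, 1 rose and 4 fell (3.45% and 13.8%, median -0.04), with 13 members above 0 and 16 below. Of 19 endocardial genes, 0 rose and 3 fell (15.8% lower, median -0.28). Plvap is counted in both the pan-endothelial and the endocardial falls, and Tal1, a pan-endothelial fall, is also on the red cell maturation list. Beside Gpihbp1, Cd36 and Fabp4, the rising genes were the water channel gene Aqp1 (0.56 ± 0.13), the semaphorin and growth factor receptor gene Nrp2 (0.48 ± 0.10), Rgcc (0.79 ± 0.19) and Ly6a (1.94 ± 0.45). Bmx, a kinase of endocardium and arteries, fell by 0.70 ± 0.13 (adjusted p = 0.0247). Cldn5, a tight junction protein of endothelium, rose from 15.2, 17.5 and 18.4 CPM to 25.8, 26.4 and 29.5 CPM (0.68 ± 0.17, adjusted p = 0.0474). Plvap, which forms the diaphragms of fenestrae and marks endocardium at this age (chromosome 8, 71497765 to 71511752), fell from 107, 109.8 and 113 CPM to 72.2, 76.8 and 50.1 CPM (-0.73 ± 0.14, adjusted p = 0.0234).

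The receptor kinase gene Tie1 (-0.38 ± 0.09) and the transcription factor genes Tal1 (-0.46 ± 0.09) and Lyl1 (-0.56 ± 0.12) fell as well, and Pecam1 did not pass (0.11 ± 0.07, adjusted p = 0.391). Endocardial Foxc1 fell by 0.54 ± 0.12 and Tmem108 by 0.55 ± 0.12, while Npr3 was at -0.42 ± 0.13 (adjusted p = 0.0842). The summed endothelial markers overlapped between the stages (633 to 681 CPM and 579 to 686 CPM). Of the 4 markers in this sum, Tie1 fell and Pecam1, Cdh5 and Kdr did not pass. Without E14.5 replicate 7.2, 0 genes of the 3 lists passed and the coronary median was 0.12. The pan-endothelial median changed sign without that heart (0.015) and without E13.5 replicate 1 (0.0096), and was -0.080 without E13.5 replicate 2, -0.021 without E14.5 replicate 8 and -0.084 without E14.5 replicate 7. Of 12 lymphatic genes, 2 rose and 2 fell: Ccl21a, the chemokine of lymphatic vessels, from 0.221, 1.49 and 0.641 CPM to 7.90, 5.08 and 10.8 CPM (3.37 ± 0.73, adjusted p = 0.0331), and Mmrn1 (1.29 ± 0.22) rose, and Foxc2 (-0.83 ± 0.20) and Sema3a fell. Ccl21a and Ccl21b are near-identical copies, and which copy their reads came from is uncertain. The lymphatic markers Lyve1, Prox1 and Pdpn summed to 128 to 147 CPM at E13.5 and 130.4 to 137 CPM at E14.5. Prox1 made up most of this sum, at 123, 115 and 108 CPM and then 107, 113 and 112 CPM. Lyve1 was at 8.69, 9.23 and 8.73 CPM and then 10.2, 5.71 and 12.0 CPM.

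Among mural cell genes, Rgs5 stood apart. The other pericyte genes Kcnj8 (0.75 ± 0.19, adjusted p = 0.0524), Abcc9 (0.17 ± 0.14, adjusted p = 0.514) and Pdgfrb (0.21 ± 0.13, adjusted p = 0.347) lay above 0 and did not pass. Of the 19 genes of pericytes and smooth muscle, 13 lay above 0 (median 0.21). The E14.5 hearts were above all E13.5 hearts in 9, as in 14.0% of all tested genes, and below in 5, as in 15.5%. In the list 1 rose and 3 fell (5.26% and 15.8%, against 1.87% and 1.84% of all genes). Myh11, a smooth muscle marker, was at 0.518, 0.778 and 0.433 CPM and then 1.32, 0.952 and 2.94 CPM and did not pass. The 3 that fell encode proteins of contractile or early mural cells. Cnn1, calponin (chromosome 9, 22099216 to 22109630), which embryonic cardiomyocytes also express, fell from 209.7, 215 and 233 CPM to 152, 150.4 and 127 CPM (-0.62 ± 0.08, adjusted p = 0.0105). Tagln, transgelin, fell from 109, 96.5 and 57.00 CPM to 52.1, 39.8 and 38.9 CPM (-1.01 ± 0.25, adjusted p = 0.0448), and the adhesion protein gene Mcam by 0.36 ± 0.08. Acta2 did not pass (0.03 ± 0.18).

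Fibroblast and matrix genes gave 5 rising and 0 falling of 36 (13.9% higher, against 1.87% of all genes, median 0.15). The median changed sign without E14.5 replicate 8 (-0.081) and was 0.28 and 0.088 without E13.5 replicates 1 and 2 and 0.26 without E14.5 replicate 7.2, where 0 genes passed. Dpt, dermatopontin (chromosome 1, 164796644 to 164824266), rose from 9.02, 8.92 and 10.1 CPM to 29.4, 29.2 and 36.8 CPM (1.77 ± 0.26, adjusted p = 0.0168), with little spread within E13.5 or within litter 2. Aspn, asporin, rose by 1.24 ± 0.22, Sparcl1, a matricellular protein, by 0.81 ± 0.16, Dcn, decorin, by 0.52 ± 0.10 and Thy1 by 0.96 ± 0.23. The general fibroblast markers Pdgfra, Tcf21 and Col1a1 summed to 625 to 1019 CPM at E13.5 and 537 to 878 CPM at E14.5, overlapping, and Col1a1 was at -0.19 ± 0.29. Col15a1, a basement membrane collagen, rose by 0.81 ± 0.20 (adjusted p = 0.0449). In the epicardium list, 2 of 18 fell (11.1%, against 1.84% of all genes), Krt19 (-0.93 ± 0.20) and Bnc1 (-0.76 ± 0.13), and Wt1 did not pass (-0.25 ± 0.10).

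Genes on the valve and cushion list and on the general BMP and TGF-beta and Wnt lists that passed the test all fell. Of 28 valve and cushion genes, 4 fell and 0 rose (14.3% lower, median -0.27). Of 39 BMP and TGF-beta genes, 5 fell and 0 rose (12.8% lower, median -0.24, 32 below 0). Of 39 Wnt genes, 5 fell and 0 rose (12.8% lower, median -0.32, 30 below 0). Over all tested genes, 1.84% fell. Smad6 and Tgfb2 are counted in both the valve list and the BMP and TGF-beta list, and Bmp10, described above, is among the fallen BMP genes. Without E14.5 replicate 7.2, 0 genes of the 3 lists passed and the BMP and TGF-beta median was -0.16, and without E14.5 replicate 8 the valve and Wnt medians were -0.44 and -0.53. Of the 3 valve mesenchyme markers, Hapln1 was read at 56.8, 49.5 and 40.4 CPM and then 28.2, 20.3 and 12.4 CPM. Sox9 was at 23.0, 21.7 and 20.6 CPM and then 20.8, 17.9 and 15.7 CPM, and neither passed. The sum of the 3 lay the other way, at 455 to 507 CPM at E13.5 and 528 to 555 CPM at E14.5. Postn, periostin, a matrix protein of maturing valves and fibroblasts, made up most of it, at 428, 384 and 406 CPM and then 506, 489.5 and 500.0 CPM, with no overlap, and did not pass (0.30 ± 0.09, adjusted p = 0.0710). Among ligands, Tgfb2, needed for cushion remodelling, fell from 81.1, 77.4 and 68.8 CPM to 56.2, 53.7 and 49.7 CPM (-0.51 ± 0.10, adjusted p = 0.0250), Wnt5a (chromosome 14, 28504750 to 28527448) from 66.5, 71.4 and 66.4 CPM to 45.00, 45.7 and 37.01 CPM (-0.68 ± 0.12, adjusted p = 0.0208), and Wnt11 by 0.61 ± 0.15. Among receptors and extracellular inhibitors, the Wnt receptor Fzd2 (-0.41 ± 0.10), the Wnt antagonist Sfrp1 (-0.64 ± 0.14) and the BMP antagonist Nog (-1.25 ± 0.31) fell. Among targets and feedback genes, Smad6, the inhibitory Smad, fell from 61.4, 63.3 and 65.5 CPM to 50.7, 48.5 and 44.1 CPM (-0.41 ± 0.07, adjusted p = 0.0208), with Msx2 (-0.73 ± 0.18), Tgfbi (-0.82 ± 0.19) and Rnf43, which removes Wnt receptors (-1.76 ± 0.40). Fst, follistatin, which binds activins (-1.52 ± 0.25), and Gdf6, a BMP family ligand (-1.34 ± 0.24), were among the 15 lowest fold changes of at least 1 CPM.

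In other pathways, Nrarp, a Notch target that dampens Notch signalling, was the 1 of 25 Notch genes that passed (0.89 ± 0.16, adjusted p = 0.0225). It made 4% of that list, while over all tested genes 1.87% rose and 1.84% fell. In the FGF, IGF and neuregulin list, Fgf18 rose (1.01 ± 0.25) and the FGF target Etv4 (-0.87 ± 0.17) and the endothelin receptor Ednrb (-0.72 ± 0.18) fell, 3 of 38 in all (2.63% higher and 5.26% lower). Of 18 glucocorticoid and thyroid hormone genes, 4 rose and 0 fell (22.2%; median 0.32). These were Nr3c1, the glucocorticoid receptor (82.9, 81.1 and 75.6 CPM to 96.5, 100.3 and 106 CPM; 0.34 ± 0.07, adjusted p = 0.0258), the metallothioneins Mt1 (0.90 ± 0.19) and Mt2 (0.93 ± 0.23), and Per1. Per1, which is both a clock gene and a glucocorticoid target, rose from 30.1, 26.05 and 26.8 CPM to 38.4, 46.2 and 47.2 CPM (0.67 ± 0.09, adjusted p = 0.00896) and stayed called when any 1 of 5 of the 6 WT libraries was left out. With Npas2 (1.30 ± 0.33) and Hlf (0.65 ± 0.13) it made 3 of 19 clock genes that rose (15.8%). Fkbp5, a widely used glucocorticoid target, did not pass (0.13 ± 0.08, adjusted p = 0.331). No source used here states the hour of collection.

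Mast cell genes gave large folds from few counts. Tpsb2, a mast cell tryptase (chromosome 17, 25366305 to 25369098), had 3 counts over the 3 E13.5 hearts and 192 over the 3 E14.5 hearts, a ratio of 133 with a 95% interval of 44.8 to 650.3 that covers counting error only. Its levels at E14.5 were 1.05, 1.10 and 1.36 CPM, close to one another. Cma1, mast cell chymase, rose from 0.318, 0.135 and 0.160 CPM to 2.07, 2.33 and 1.32 CPM (3.15 ± 0.49, adjusted p = 0.0181). The defining mast cell markers Cpa3 and Ms4a2 summed to 1.31 to 2.58 CPM at E13.5 and 3.02 to 4.85 CPM at E14.5. Macrophage and leukocyte genes did not pass (0 of 25), with a marker sum of 45.8 to 47.1 CPM and then 33.2 to 39.7 CPM, and S100a9 reached 8.46 CPM in the litter 3 heart alone. Skeletal muscle markers Myod1, Myog and Pax7 were at or near 0 in all hearts (summed 0.534 to 0.902 and 0.487 to 0.662 CPM), yet the fast-muscle genes Tnni2 (28.5, 23.8 and 25.6 CPM to 13.8, 11.2 and 8.96 CPM; -1.20 ± 0.21) and Actn3 (-1.44 ± 0.31) fell. The liver genes Alb, Afp and Apoa1 summed to under 0.22 CPM at E13.5 and to 0.278 to 3.40 CPM at E14.5.

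Outside the lists, the highest fold changes among genes of at least 1 CPM included Clec3b, tetranectin (0.653, 0.203 and 0.977 CPM to 4.10, 6.59 and 11.6 CPM; 3.62 ± 0.70), the metalloreductase gene Steap4 (3.34 ± 0.54), Ptgds, prostaglandin D synthase (1.78 ± 0.31), and Dhrs7c, a reductase of the sarcoplasmic reticulum (6.32, 6.39 and 5.96 CPM to 17.9, 20.9 and 43.7 CPM; 2.14 ± 0.33). The lowest, next to the globins, was Hsd3b6, a steroid dehydrogenase (5.66, 9.73 and 8.59 CPM to 2.16, 1.01 and 0.487 CPM; -2.74 ± 0.50, adjusted p = 0.0225). Stmn4, a stathmin of microtubules (10.4, 7.72 and 11.1 CPM to 2.50, 3.14 and 4.16 CPM; -1.58 ± 0.23), and Spred3, an inhibitor of Ras signalling (4.87, 4.31 and 3.54 CPM to 1.71, 1.83 and 1.58 CPM; -1.32 ± 0.17), fell and stayed called when any 1 of 4 of the 6 WT libraries was left out. Adrb3, the beta-3 adrenergic receptor, fell from 1.35, 2.30 and 2.72 CPM to 0.641, 1.03 and 0.211 CPM (-1.76 ± 0.44). Of the 49 lists, 11 had no called member, among them interferon response, immediate-early response, stress and heat shock, ribosomal proteins, ribosome biogenesis and retinoic acid.

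The KO hearts gave the same contrast in 6 other hearts of the same litters. In KO, 779 genes (3.76%) were called between the stages, and 49, 104, 140 and 142 without E13.5 KO replicates 7, 3 and 5 and E14.5 KO replicate 1 in turn. Of the 766 genes called in WT, 749 had a KO log2 fold change of the same sign, 379 of the 386 that rose and 370 of the 380 that fell, and 281 were called in both, which is 36.7% of the WT calls and 36.1% of the KO calls. The share of all tested genes with the same sign in WT and KO is not given here, so the 749 has no background beside it. Since WT and KO shared litters, a litter difference would appear in both. Rgs5 rose by 2.40 in KO and 2.50 in WT, Abca8a by 2.44 and 2.17, Ckm by 1.43 and 1.61, and Hmga2 was at -0.81 and -1.15. The list medians in KO were 0.32 for fatty acid genes, 0.13 for the respiratory chain, -0.35 for the fetal timing list and -2.09 for primitive globins. Called in KO were 12 of 29 fatty acid, 2 of 24 citric acid cycle and phosphocreatine, and 1 of 40 respiratory chain genes. In the other 2 lists, 6 of 15 and 1 of 3 were called. The summed respiratory chain level overlapped between KO stages, at 13228 to 14710 CPM at E13.5 and 14282 to 16570 CPM at E14.5. The respiratory chain median was 0.21 without E14.5 KO replicate 4 and 0.087 without E14.5 KO replicate 1.

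Other list medians lay further apart, and the difference was called for 0 of their members. The median over macrophage and leukocyte genes was -0.22 in WT (9 of 25 above 0) and 1.18 in KO (24 of 25 above 0), with 1 of the 25, the chemokine receptor gene Ccr2, called in KO. Their summed level overlapped between the KO stages, at 104, 49.2 and 122 CPM in E13.5 KO replicates 3, 5 and 7 and 53.9, 206 and 164 CPM in E14.5 KO replicates 2, 4 and 1. The KO median ran from 0.68 without E14.5 KO replicate 4 to 1.93 without E13.5 KO replicate 7, and the WT median was -0.091 and -0.14 without E14.5 WT replicates 8 and 7. Adult-type globins had medians of 0.88 in WT and 2.01 in KO, and the KO value was 0.54 without E14.5 KO replicate 1, whose summed level of 41602 CPM stood far above the 3542 to 9290 CPM of the other 5 KO hearts. Pan-endothelial genes had medians of -0.04 in WT and 0.23 in KO (0.12 without E14.5 KO replicate 1), with 7 of 29 called in KO.

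The difference between the 2 stage changes was called for 0 genes (0%; edgeR, 750 genes at an unadjusted p under 0.05, smallest adjusted p = 0.996; DESeq2 also 0). Genes with the smallest p for that difference included Emp1, a membrane protein (0.12 in WT and 0.53 in KO), and Slc22a3, a cation transporter (0.37 and -1.44). The cholesterol synthesis genes Cyp51 (0.03 and -0.33) and Msmo1 (0.10 and -0.39), and Insig1, their feedback regulator (0.29 and -0.28), were also among them, and none of these 5 passed in WT. Some genes called in WT had a KO change near 0, such as Foxc2 (-0.01), Ednrb (-0.02), Nr2f2 (0.03) and Rnf43 (0.03), but that difference did not pass for any of them. Ino80 itself was read at 36.6, 33.8 and 30.7 CPM and then 33.9, 31.4 and 30.8 CPM in WT (-0.07 ± 0.08, adjusted p = 0.615), and 0 of 15 INO80 complex genes passed.

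**Figure D5:**
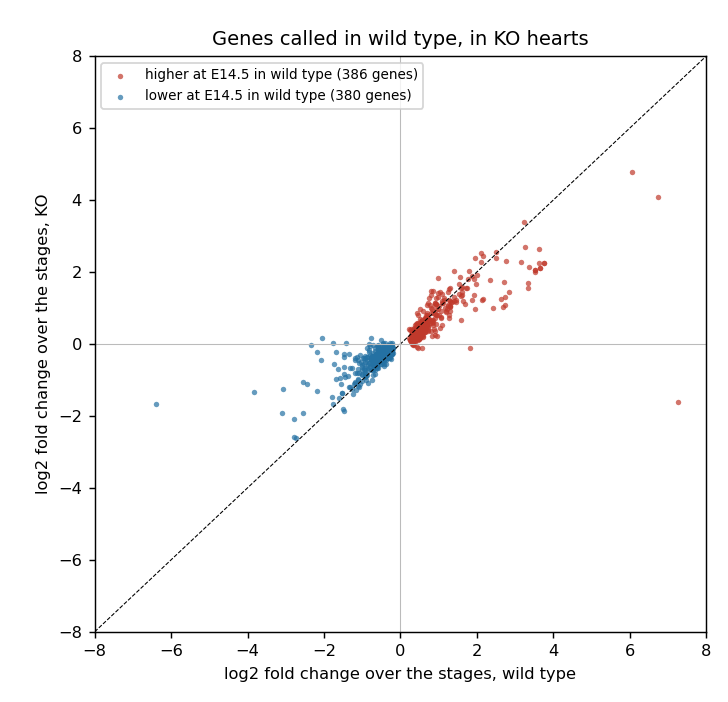
Log2 fold change over the stages in WT (x axis) against KO (y axis) for the 766 genes called in WT, with the line of equal change dashed. Of them, 749 lie in the lower left or upper right part of the plot, and the genes were chosen on their WT values.

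Base composition moved with the direction of change. The median GC content of the longest transcript was 48.5% for genes that rose, 54.1% for those that fell and 49.6% for all tested genes, and their median exon lengths were 3387, 4381.5 and 3414 bases. Among genes whose mean level reached 10 CPM, the median log2 fold change ran from 0.05 under 45% GC through 0.01 and -0.03 to -0.09 over 55% GC in WT, and from 0.07 to -0.09 in KO. With a GC offset in the fit, a setting chosen after seeing the data, 640 of the 766 calls were kept, 884 genes were called, and 58.8% of these rose, against 50.4% without it. Under that offset the energy genes kept a median of 0.31, with 39 of 93 called, the fetal timing list a median of -0.42 with 5 called, and the primitive globins -2.78 with 3 called. The 386 genes that rose included 37 processed pseudogenes and the 380 that fell included 5, and reads of such copies cannot be assigned with certainty.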

How the data were processed

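Whole-heart RNA of mouse embryonic hearts was sequenced in 12 libraries. The authors deposited raw counts per gene symbol, whole numbers in 45664 rows. The submitters' processing notes name the build GRCm38 and, with no roles, DESeq, DESeq2, featureCounts and STAR 2.5.3a. Strand, handling of multi-mapping reads and the annotation release are not given in the sources used here. In 27 rows the symbol had become a date, and these were read as no named gene.

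In R 4.3.3 with edgeR 4.0.16, filterByExpr left 20691 genes. TMM scaling and 1 quasi-likelihood model with a mean for each of 4 groups followed, on all 12 libraries, with 8 residual degrees of freedom and a coefficient of variation between hearts of 17.1%. Two-sided p-values measure the spread between these libraries and carry the Benjamini-Hochberg adjustment across the tested genes (threshold 0.05). A standard error is the absolute log2 fold change over the square root of F. Symbols gave GENCODE M21 coordinates (GRCm38) for 19463 genes (94.1%). The fit was tested on simulated data.

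Genes named are the 15 highest and 15 lowest called fold changes of at least 1 CPM without overlap, up to 4 called members per list and direction by p, or the member with the smallest p where none was called, a fixed panel, 5 genes each way for the KO difference, and those said to be chosen afterwards. Not every gene so named is described, and a few are not reported here. Members, lists and panel were chosen with earlier results of these data known. Replicates of each stage differed beyond counting noise (chi-square per degree of freedom 17.5 to 59.0). Alternatives, with DESeq2 1.42.0 among them, are given at the end.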

Additional observations from a re-analysis of the deposited data

How the results depend on the processing

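Against 766 genes called in WT, 2132 were called with DESeq2 (758 of the 766 kept), 1684 with a term for litter 3 (766 kept), 556 with only the WT libraries (436 kept), 1008 without a low-count filter (697 kept), 762 with RLE size factors, 583 with a Y-linked covariate, 764 with a red cell covariate and, chosen after seeing the data, 884 with the GC offset and 67 with litter 3 left out (61 kept; 50 up, 17 down). Leaving out 1 library at a time gave 8 to 27 calls for E13.5 WT, 15 to 767 for E14.5 WT (15 without replicate 7.2), 379 to 500 for E13.5 KO and 989 to 1029 for E14.5 KO. In KO, against 779, DESeq2 called 1784, the litter term 1375, the Y-linked covariate 382, and leaving out 1 library gave 363 to 528 for E13.5 WT, 555 to 1044 for E14.5 WT, 49 to 140 for E13.5 KO and 142 to 910 for E14.5 KO. The difference between the stage changes was called for 0 genes under each alternative that could be fitted. Each of the 766 called genes had the same sign under all alternatives that gave it a value, which the lack of overlap between the groups fixes in part.

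Only genes that had not passed changed sign (log2 fold changes follow). Lyve1 was at -0.062 with the Y-linked covariate, -0.059 with the red cell covariate and -0.163 with litter 3 left out. With the GC offset Myh6 was at 0.061, Nkx2-5 at 0.015 and Trp53i11 at 0.0028. With litter 3 left out Myh6 was at 0.223, Acta2 at -0.142 and Trp53i11 at 0.029. Leaving out 1 E13.5 WT library at a time took Acta2 from -0.074 to 0.078, Col1a1 from -0.333 to 0.116, Myh6 from -0.054 to 0.047, Nkx2-5 from -0.185 to 0.075 and Sox10 from -0.452 to 0.193. Leaving out 1 E14.5 WT library at a time took Acta2 from -0.14 to 0.149, Lyve1 from -0.163 to 0.313, Myh6 from -0.168 to 0.225, Sox10 from -0.705 to 0.287 and Trp53i11 from -0.137 to 0.030. Col1a1 reached -0.46 and Lyve1 -0.0038 without replicate 8. The cause was not tested. No paired analysis was possible because the WT stages share no replicate number and no litter. Depth limits the low genes: Tpsb2 rests on 3 counts at E13.5.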

Other observations

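Some members of lists not described above also passed, where over all tested genes 1.87% rose and 1.84% fell. Of 23 natriuretic, adrenergic and muscarinic genes, 2 rose: Chrm2, the muscarinic receptor through which the vagus slows the heart, from 32.1, 32.97 and 30.6 CPM to 37.1, 43.2 and 50.02 CPM (0.45 ± 0.10, adjusted p = 0.0340), and Rgs4, a regulator of that receptor's signalling, from 1.08, 0.710 and 1.27 CPM to 4.46, 1.74 and 4.94 CPM (1.87 ± 0.41, adjusted p = 0.0338). Of 23 p53 target and apoptosis genes, Perp (0.53 ± 0.09) and Ccng1 (0.40 ± 0.09) rose and Plk2 (-0.39 ± 0.07) fell. Tob1, an antiproliferative gene, rose by 0.28 ± 0.07 (adjusted p = 0.0474). Ptbp1, a repressor of muscle exons that is high in immature muscle, fell from 136, 134 and 139 CPM to 119, 103 and 101 CPM (-0.34 ± 0.06, adjusted p = 0.0238) and was the 1 of 19 splicing genes to pass. Of 26 red cell maturation genes, Ank1, ankyrin of the red cell and muscle, rose by 0.40 ± 0.10 (adjusted p = 0.0431) and Tal1, described above, fell. Gap43, a growth cone gene of nerves, fell by 0.60 ± 0.15 (adjusted p = 0.0449), with nerve and neural crest markers overlapping between stages (6.06 to 6.83 and 4.82 to 6.79 CPM).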
